A study of Taeniopygia guttata with 24 samples.

Results

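In the telencephalon of the zebra finch, 150 genes increased in mean level at every one of 3 age steps, from 1 to 20 days post hatch (dph), from 20 to 65 dph and from 65 dph to adulthood. They were chosen by these measured age means. Among the 11741 genes with at least 1 cpm (the field's unit for the count of a gene relative to the library total) in all 24 samples, leaving out PVALB, the mean log2 cpm of the 6 samples of each age was taken, scaled by the trimmed mean of M values (TMM) and with a prior count of 2. Each gene was scored by the smallest of its 3 rises, and the 150 genes with the highest score were kept. In all, 13891 genes were tested, and every one of the 150 was among them. Because age chose these genes, their levels and rises by age are a description and carry no test. The differences between the sexes did not enter the choice and were tested.

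The samples were telencephalons of zebra finches (Taeniopygia guttata) in 8 groups, males and females at 1 dph, 20 dph, 65 dph and adulthood, with 3 samples each. Every sample was a pool of 3 birds of the same sex and age, and the labels name no treatment or mutant allele. Adults are labelled as older than 170 dph. Polyadenylated RNA was sequenced, and the deposited values are read counts per gene. The telencephalon holds many regions and cell types, so that a higher level from more cells of a type and one from more RNA per cell cannot be told apart. Each p-value measures the spread between pools.

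A songbird hatches with a telencephalon in which neurons are still being added and wired. Over the following weeks these neurons acquire the ion channels, receptors and release proteins of mature circuits, and glia wrap axons in myelin. In this species the juvenile male memorises and then practises the song of a tutor during the same weeks, and keeps a stable song as an adult.

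Libraries held 16680575 to 28772178 counted reads. A count of 3 reads, roughly the largest mean count that an observed 0 leaves plausible, stood for 0.104 to 0.180 cpm before TMM scaling. All levels given are cpm scaled by TMM. The mean TMM factor was 1.14 at 1 dph and 0.961, 0.945 and 0.967 at 20 dph, 65 dph and adulthood. Across all tested genes the median change from 1 to 20 dph was -0.03 on the log2 scale with TMM and -0.27 with library totals alone. With library totals all 150 genes still rose at each of the 3 steps, but their lowest score was 0.03, against 0.27 with TMM. The choice by rises after TMM fixes much of this, so nothing is read from it. Summed levels of neuron markers were 1524 to 2094 cpm at 1 dph, 5832 to 6177 cpm at 20 dph, 7709.6 to 8261 cpm at 65 dph, and 8524 to 9219 cpm in adults (11 genes found, for 10 of 17 symbols). Oligodendrocyte markers summed to 84.6 to 153 cpm at 1 dph, 2077 to 2709 cpm at 20 dph, 1571 to 1841 cpm at 65 dph, and 1346 to 1966 cpm in adults (7 of 16 found), and progenitor and cell cycle markers to 476 to 587 cpm at 1 dph, 112 to 131 cpm at 20 dph, 85.8 to 94.0 cpm at 65 dph, and 81.8 to 93.0 cpm in adults (10 of 12 found). Neuron markers were thus highest in adults, oligodendrocyte markers at 20 dph and progenitor markers at 1 dph. Red blood cell markers summed to 75.0 to 258 cpm at 1 dph, 511 to 647 cpm at 20 dph, 502 to 758 cpm at 65 dph, and 545 to 978 cpm in adults (2 of 10 found), and their mean also increased at every step, with overlap between 20 dph, 65 dph and adults. Astrocyte markers summed to 302 to 362 cpm at 1 dph, 1268 to 1503 cpm at 20 dph, 1061 to 1380.3 cpm at 65 dph, and 1153 to 1316 cpm in adults (5 of 12 found), so that they were higher from 20 dph on. The part of these cell types in the rises below was not tested.

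Before any result on sex is read, the adult labels need a remark. Male birds carry 2 Z chromosomes and females 1, and most Z genes of birds are only partly compensated. In each sample the median deviation of 639 tested Z genes from their means over the 24 samples was taken on the scale of log2(cpm + 0.5). At 1, 20 and 65 dph it lay between 0.25 and 0.41 in the 9 male samples, against -0.41 to -0.26 in the 9 female samples. In adults it was -0.05, 0.33 and 0.10 in the libraries labelled male, against -0.08, -0.01 and -0.06 in those labelled female. The adult sexes were therefore not separated by their Z genes as the younger ones were, male sample 1 lay among the females, and male sample 3 was closer to them than male sample 2 was. The adult females in turn lay above all 9 younger female samples. Differences between males and females in adults refer to the libraries as labelled, and results are also given without the adult samples or without adult male samples 1 and 3.

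The 150 genes were a graded group. Their score, the smallest of the 3 rises, ran from 0.27 to 0.90 on the log2 scale, with a median of 0.34. At the lower end stood LOC100221738 with 0.27, ENSTGUG00000017269 with 0.27 and ENSTGUG00000005589 with 0.27. Just outside were ENSTGUG00000003950 and SYN2, which encodes a synaptic vesicle phosphoprotein, with 0.27 each, and ENSTGUG00000004327 with 0.26. The boundary therefore falls within a continuous range, and 1900 of the 11741 genes (16.2%) had all 3 rises above 0. Only 14 of the 150 rose by at least 0.5 on the log2 scale at each step.

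The increase was largest early. The median rise was 1.00 from 1 to 20 dph (1.996-fold), 0.44 from 20 to 65 dph (1.35-fold) and 0.36 from 65 dph to adulthood (1.28-fold). For the 11741 genes the same medians were 0.00, 0.01 and 0.00. The first step was the largest for 126 of the 150 genes, the second for 11 and the third for 13, and the third step was the smallest for 96. From 1 dph to adulthood the median rise was 1.93 (3.82-fold), with a range from 0.88 to 4.96. In adults 15 genes were at least 10-fold and 73 at least 4-fold above their level at 1 dph, on the log2 scale with the prior count, and 3 were less than 2-fold above it.

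**Figure D1:**
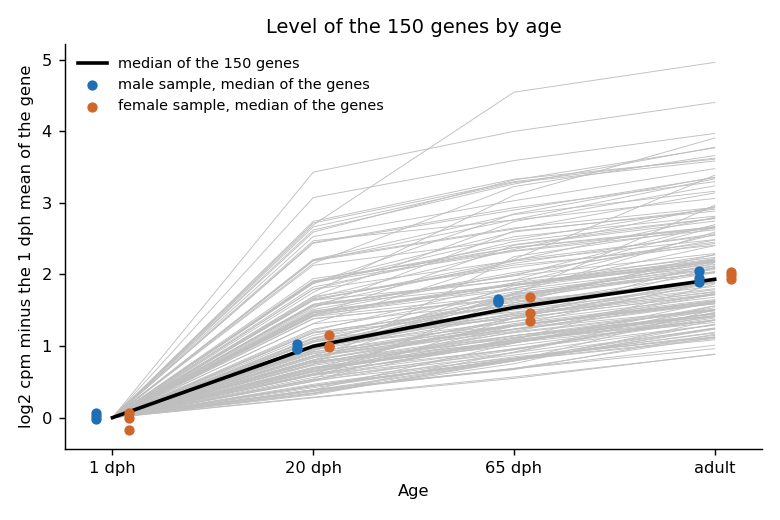
Log2 cpm of each of the 150 genes minus its mean at 1 dph (vertical axis, grey lines through the age means) at the 4 ages, with the median of the genes in black. Points are the median of the 150 genes in each sample, males in blue and females in orange. The sample medians run from 0.95 to 1.16 at 20 dph, from 1.34 to 1.69 at 65 dph and from 1.89 to 2.05 in adults.

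Levels differed widely among the genes. The mean level at 1 dph was 1.19 to 177 cpm with a median of 8.03 cpm, and in adults it was 3.69 to 991 cpm with a median of 40.8 cpm. At 1 dph 84 of the 150 genes were below 10 cpm, and in adults 29. Cpm is not divided by gene length, so levels of different genes are not compared. All 6 samples of the later age lay above all 6 of the earlier age for 115 genes at the first step, where 26.3% of all tested genes did so, for 85 at the second (7.74% of all) and for 64 at the third (4.2% of all). At all 3 steps this held for 45 of the 150, against 84 of the 13891 tested genes (0.605%). The choice by age means fixes much of these counts, so nothing is read from them. The third count was 80 without adult male samples 1 and 3, where fewer samples make overlap less likely for any gene. The share of all tested genes was not computed for that setting, so nothing is read from the change.

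A symbol was known for 69 of the 150 genes and for 3473 of the 13891 tested. Symbols come from the gene tables of the study, which list mainly genes that changed there. Of the tested genes with a symbol, 58.0% were called higher after 1 dph and 36.8% lower, against 35.1% and 37.2% of all tested genes. This call compared the mean of the 3 later ages with 1 dph in edgeR's quasi-likelihood test, with a Holm adjusted p under 0.05 in genes that passed an omnibus test. The other genes of each role below are counted by that call and should be read beside these shares.

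The highest score belonged to PPL (ENSTGUG00000003506, chromosome 14), which encodes periplakin, a plakin that links intermediate filaments to cell junctions. PPL had 5.99, 7.44 and 9.62 cpm at 1 dph, 15.2, 18.5 and 23.4 cpm at 20 dph, 30.3, 33.9 and 40.6 cpm at 65 dph, and 63.6, 76.2 and 119.5 cpm in adults (lowest, median and highest of 6 samples). The samples of successive ages did not overlap at any step. Its rises were 1.32, 0.90 and 1.17 on the log2 scale, and adults were 10.5-fold above 1 dph. JADE2 (ENSTGUG00000001284, chromosome 13), a PHD finger protein of the HBO1 histone acetyltransferase complex, ranked next among genes with a symbol. It had 13.2, 14.9 and 16.8 cpm at 1 dph, 46.6, 49.0 and 57.4 cpm at 20 dph, 118, 129.5 and 142 cpm at 65 dph, and 195, 225 and 269 cpm in adults. These values did not overlap between ages either, and its rises were 1.75, 1.36 and 0.80 with a total of 15-fold.

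The largest total rise was that of LRMP (ENSTGUG00000012124, chromosome 1A), also called IRAG2, a membrane protein of the endoplasmic reticulum known from lymphocytes. LRMP had 4.12, 4.63 and 5.98 cpm at 1 dph, 25.2, 29.8 and 38.0 cpm at 20 dph, 103, 111 and 127 cpm at 65 dph, and 128, 149 and 174 cpm in adults. Its samples did not overlap at any step, and most of the increase fell in the first 2 steps. Its rises were 2.69, 1.85 and 0.42, with a total of 4.96 (31.2-fold). After LRMP the next largest totals among the 69 genes were 4.40 for SLC24A4, 3.97 for ENO2, 3.91 for JADE2 and 3.78 for SV2C. The smallest were 1.12 for POPDC3, 1.33 for LPAR1, 1.36 for ITSN2, 1.37 for TTC39B and 1.42 for PLEKHA1. POPDC3, of the Popeye family of membrane proteins, had 8.12, 8.41 and 9.87 cpm at 1 dph, 10.9, 11.5 and 13.7 cpm at 20 dph, 14.1, 15.6 and 16.95 cpm at 65 dph, and 15.5, 18.9 and 21.7 cpm in adults. Its first step was 0.47, and samples of 65 dph and adults overlapped.

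**Figure D2:**
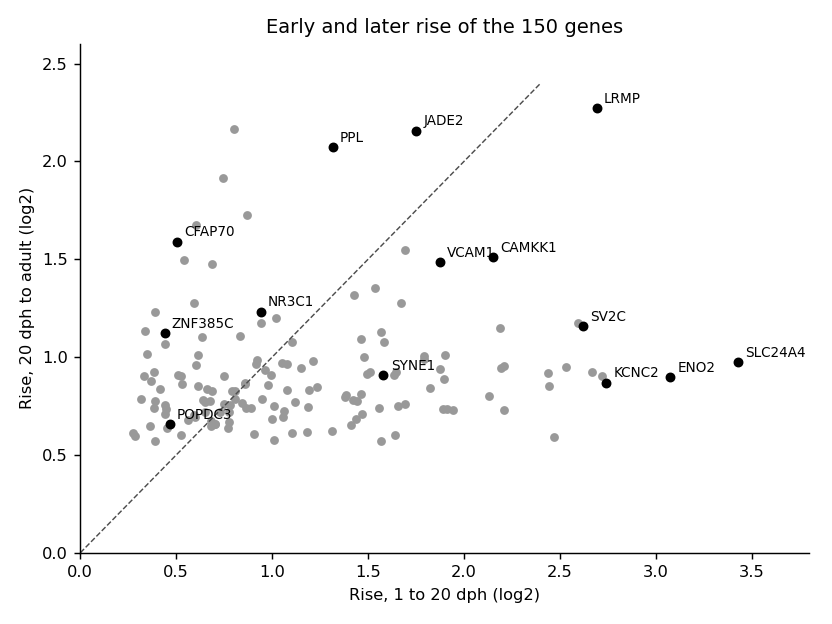
Rise from 20 dph to adulthood (vertical axis, log2) against the rise from 1 to 20 dph (horizontal axis, log2) for the 150 genes, each a point, with 14 genes named. On the dashed line both are equal. SLC24A4 (3.43) and ENO2 (3.07) have the largest early rises, and PPL, JADE2 and CFAP70 lie above the line.

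Genes of calcium handling included 3 of the group. SLC24A4 (ENSTGUG00000012580, chromosome 5) encodes NCKX4, an exchanger that removes calcium from the cell in return for sodium. It had 1.14, 1.67 and 2.02 cpm at 1 dph, 14.05, 19.1 and 20.7 cpm at 20 dph, 20.7, 27.1 and 36.2 cpm at 65 dph, and 28.5, 36.6 and 39.4 cpm in adults. Its first rise of 3.43 was the largest of all 150 genes, and its samples overlapped only between 65 dph and adults. RYR2 (ENSTGUG00000010491, chromosome 3), the ryanodine receptor that releases calcium from internal stores, had 97.8 ± 15.3 cpm at 1 dph, 357 ± 34.0 cpm at 20 dph, 561 ± 62.9 cpm at 65 dph, and 682 ± 39.3 cpm in adults (SD, n = 6, as for the other means by age), and rises of 1.88, 0.65 and 0.29. STIM2 (ENSTGUG00000009177, chromosome 4), which senses calcium in the endoplasmic reticulum and opens entry from outside, had 15.4 ± 2.30 cpm at 1 dph, 25.8 ± 2.58 cpm at 20 dph, 33.9 ± 3.27 cpm at 65 dph, and 43.7 ± 3.98 cpm in adults, and rises of 0.75, 0.40 and 0.36. In the list of calcium stores and entry, 10 of the other 10 tested genes were called higher after 1 dph and 0 lower.

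Of the proteins that read calcium, CAMKK1 (ENSTGUG00000004191, chromosome 19), a kinase that activates the calmodulin-dependent kinases I and IV, had 4.65, 5.48 and 6.58 cpm at 1 dph, 21.2, 23.4 and 33.8 cpm at 20 dph, 49.6, 53.1 and 56.8 cpm at 65 dph, and 63.1, 71.7 and 80.0 cpm in adults. The ages did not overlap at any step, and its rises were 2.15, 1.08 and 0.43 (12.7-fold in total). RCAN2, a regulator of the phosphatase calcineurin, rose by 1.65, 0.51 and 0.41, and CAMTA1, a calmodulin-binding transcription activator, by 1.12, 0.46 and 0.31. The level of RCAN2 was 10.2 ± 1.72 cpm at 1 dph, 31.9 ± 3.72 cpm at 20 dph, 45.5 ± 4.97 cpm at 65 dph, and 61.1 ± 10.5 cpm in adults. Of calmodulin, calcineurin and calcium sensor genes, 24 of the other 24 tested genes were called higher after 1 dph and 0 lower.

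Phospholipase C makes diacylglycerol and inositol trisphosphate, and diacylglycerol kinases convert that lipid to phosphatidic acid. PLCH2 (ENSTGUG00000002915, chromosome 21), a phospholipase C of the eta class, had 5.25, 5.84 and 6.68 cpm at 1 dph, 31.7, 34.2 and 39.0 cpm at 20 dph, 44.2, 49.1 and 55.2 cpm at 65 dph, and 59.2, 65.9 and 76.3 cpm in adults. It separated all 4 ages, and 2.53 of its total of 3.48 fell in the first step. The kinase DGKH had 5.11 ± 1.82 cpm at 1 dph, 23.2 ± 5.78 cpm at 20 dph, 31.7 ± 8.43 cpm at 65 dph, and 44.0 ± 6.88 cpm in adults, and its samples overlapped at the second and the third step. DGKK, another kinase of this family, had 113 ± 9.62 cpm at 1 dph, 234 ± 14.3 cpm at 20 dph, 376 ± 19.5 cpm at 65 dph, and 457 ± 16.8 cpm in adults and did not overlap at any step. EFR3A, which anchors a phosphatidylinositol kinase at the plasma membrane, rose by 1.89, 0.43 and 0.30. In the phospholipase C and diacylglycerol list, 14 of the other 16 tested genes were called higher after 1 dph and 2 lower. The lower ones were PLCG1 (age effect -1.39 on the log2 scale) and PLCL1 (-1.20).

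Ion channels of the group included voltage-gated potassium channels. KCNC2 (ENSTGUG00000007354, chromosome 1A) encodes Kv3.2, a channel that lets fast-spiking neurons repolarise quickly. It had 17.4, 19.9 and 23.0 cpm at 1 dph, 123, 135 and 148 cpm at 20 dph, 197, 201 and 214 cpm at 65 dph, and 220.4, 252 and 266 cpm in adults. No 2 successive ages overlapped, and the rises were 2.74, 0.59 and 0.28 (12.2-fold in total). KCNH1, of the ether-a-go-go family, had 3.92 ± 0.708 cpm at 1 dph, 6.80 ± 0.772 cpm at 20 dph, 9.599 ± 1.5 cpm at 65 dph, and 12.2 ± 1.84 cpm in adults, and rises of 0.79, 0.48 and 0.34. In the potassium and HCN channel list, 25 of the other 28 tested genes were called higher after 1 dph and 3 lower. The lower ones were KCNH8, KCNN1 and HCN4, with age effects of -1.97, -1.07 and -0.43.

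ANO3 (ENSTGUG00000004669, chromosome 5), of the anoctamin family of membrane proteins, had 5.01, 8.30 and 10.2 cpm at 1 dph, 30.2, 38.5 and 42.4 cpm at 20 dph, 45.6, 57.3 and 62.1 cpm at 65 dph, and 70.7, 78.6 and 104 cpm in adults. The ages did not overlap, and its later rises were 0.58 and 0.57 after a first of 2.19. Among other ion channels, 23 of the other 24 tested genes were called higher after 1 dph and 1 lower, the lower one being the T-type calcium channel gene CACNA1H (-1.07).

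Among genes of transmitter release, SV2C (ENSTGUG00000004114, chromosome Z), a glycoprotein of synaptic vesicles, had 3.41, 4.14 and 5.004 cpm at 1 dph, 22.1, 24.9 and 34.9 cpm at 20 dph, 27.7, 41.4 and 56.8 cpm at 65 dph, and 48.7, 55.7 and 71.6 cpm in adults. The 20 and 65 dph samples overlapped, as did those of 65 dph and adults, and its rises were 2.62, 0.64 and 0.51. SYTL5, a synaptotagmin-like protein that binds Rab27, had 3.83 ± 0.362 cpm at 1 dph, 13.6 ± 2.25 cpm at 20 dph, 17.8 ± 1.498 cpm at 65 dph, and 27.1 ± 2.05 cpm in adults and did not overlap at any step. ITSN2, a scaffold of endocytosis, had 55.1 ± 5.05 cpm at 1 dph, 88.3 ± 3.17 cpm at 20 dph, 116 ± 8.399 cpm at 65 dph, and 141 ± 7.10 cpm in adults and did not overlap either, with smaller rises of 0.68, 0.39 and 0.28. In the list of transmitter release, 34 of the other 36 tested genes were called higher after 1 dph and 2 lower, the lower ones being SYT4 and UNC13B with -0.50 and -0.55.

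Fast receptors included subunits of GABA-A and AMPA receptors. GABRB1, the beta1 subunit of the GABA-A receptor, had 2.20 ± 0.499 cpm at 1 dph, 4.23 ± 0.303 cpm at 20 dph, 7.35 ± 0.820 cpm at 65 dph, and 9.69 ± 1.13 cpm in adults, and rises of 0.94, 0.78 and 0.39. In the GABA-A list, 8 of the other 9 tested genes were called higher after 1 dph and 1 lower. The lower one was GABRA3, the alpha3 subunit, with an age effect of -1.16 and means of 51.3 cpm in adults and 116 cpm at 1 dph. GRIA4, an AMPA receptor subunit, had 57.2 ± 6.25 cpm at 1 dph, 180.5 ± 15.3 cpm at 20 dph, 250.0 ± 13.9 cpm at 65 dph, and 302 ± 11.5 cpm in adults and did not overlap between ages. Of ionotropic glutamate receptor subunits, 8 of the other 8 tested genes were called higher after 1 dph and 0 lower.

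The list of modulatory receptors, in which ATP-gated channels were also placed, was represented by P2RX5, NPY2R and CHRM3. P2RX5, an ATP-gated channel, had 3.27 ± 0.661 cpm at 1 dph, 17.9 ± 1.64 cpm at 20 dph, 24.7 ± 1.96 cpm at 65 dph, and 33.9 ± 3.88 cpm in adults, but another gene identifier bears the same symbol, so its values are uncertain. NPY2R, a receptor of neuropeptide Y, had 14.99, 18.8 and 20.1 cpm at 1 dph, 30.3, 32.6 and 33.5 cpm at 20 dph, 40.2, 44.6 and 47.6 cpm at 65 dph, and 49.8, 54.7 and 63.1 cpm in adults. The ages did not overlap, and its rises were 0.84, 0.45 and 0.32. CHRM3, a muscarinic acetylcholine receptor, rose by 0.69, 0.51 and 0.31 with overlap at the second and the third step. In this list, 18 of the other 20 tested genes were called higher after 1 dph and 1 lower, and 1 was not called. In G protein signalling, RGS7, which speeds the inactivation of inhibitory G proteins, had 59.3 ± 8.47 cpm at 1 dph, 158 ± 2.98 cpm at 20 dph, 214 ± 7.97 cpm at 65 dph, and 272 ± 19.1 cpm in adults without overlap. PDE7B, a phosphodiesterase of cyclic AMP, had 11.3 ± 1.01 cpm at 1 dph, 42.5 ± 6.09 cpm at 20 dph, 68.7 ± 9.04 cpm at 65 dph, and 85.4 ± 9.19 cpm in adults. Among G protein and cyclic nucleotide genes, 20 of the other 24 tested genes were called higher after 1 dph and 3 lower, and 1 was not called.

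The list of cytoskeletal linkers and actin nucleators held 6 genes of the group among its 19 tested genes. The role lists differ in size and in how finely roles are split, so their counts are not ranked. MAP7 (ENSTGUG00000010845, chromosome 3), which recruits kinesin-1 to microtubules, had 13.2, 14.4 and 18.03 cpm at 1 dph, 75.4, 92.0 and 96.0 cpm at 20 dph, 139, 147 and 159.9 cpm at 65 dph, and 179, 206 and 224 cpm in adults. It separated all ages, with a total of 3.77 (13.6-fold). FMN1, an actin-nucleating formin, had 1.60 ± 0.481 cpm at 1 dph, 10.7 ± 0.939 cpm at 20 dph, 16.1 ± 2.52 cpm at 65 dph, and 20.1 ± 1.47 cpm in adults, and its lowest sample at 1 dph was at 1.00 cpm, close to the filter of 1 cpm. Other genes of the group went lower after TMM scaling, as HAP1 with 0.888 cpm, NIM1K with 0.924 cpm and ENSTGUG00000018193 with 0.959 cpm. SYNE1, or nesprin-1, which links the nuclear envelope to actin, had 177 ± 17.1 cpm at 1 dph, 529.7 ± 56.2 cpm at 20 dph, 809 ± 107 cpm at 65 dph, and 991 ± 62.9 cpm in adults. The plakin PLEC, or plectin, had 102 ± 14.05 cpm at 1 dph, 391 ± 50.8 cpm at 20 dph, 514 ± 79.5 cpm at 65 dph, and 645 ± 57.0 cpm in adults. Its 20 and 65 dph samples overlapped, and so did those of 65 dph and adults. In this list 8 of the other 13 tested genes were called higher after 1 dph and 5 lower. Among the lower ones, VIM and SYNE2 had age effects of -2.44 and -1.84. SYNE2 encodes nesprin-2, and the nesprin genes SYNE1 and SYNE2 thus went opposite ways with age.

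NR3C1 (ENSTGUG00000000140, chromosome 13), the glucocorticoid receptor, had 11.2, 12.3 and 13.3 cpm at 1 dph, 18.6, 23.4 and 29.9 cpm at 20 dph, 41.7, 44.5 and 45.5 cpm at 65 dph, and 46.7, 57.4 and 62.1 cpm in adults. The ages did not overlap, and the first 2 rises were similar in size (0.94 and 0.90), followed by 0.33. RXRA, the retinoid X receptor that pairs with other nuclear receptors, had 21.6 ± 2.01 cpm at 1 dph, 41.6 ± 3.43 cpm at 20 dph, 57.9 ± 2.46 cpm at 65 dph, and 71.6 ± 5.03 cpm in adults and also separated the ages. Of nuclear receptors and glucocorticoid-induced genes, 10 of the other 14 tested genes were called higher after 1 dph and 4 lower. Among regulators of chromatin, transcription and messenger RNA, MRTFB, a coactivator of serum response factor, had 23.2 ± 3.70 cpm at 1 dph, 127 ± 19.3 cpm at 20 dph, 178 ± 25.6 cpm at 65 dph, and 229 ± 33.9 cpm in adults. CPEB1, which controls polyadenylation of messenger RNAs in the cytoplasm, had 14.9 ± 1.43 cpm at 1 dph, 40.5 ± 2.93 cpm at 20 dph, 51.7 ± 3.56 cpm at 65 dph, and 65.1 ± 3.39 cpm in adults and did not overlap at any step. PCGF5, a Polycomb ring finger protein, rose by 0.81, 0.48 and 0.35 with overlap at each step. In this list 11 of the other 15 tested genes were called higher after 1 dph and 4 lower. The lower ones included EZH2, the Polycomb histone methyltransferase, with -2.65.

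**Figure D3:**
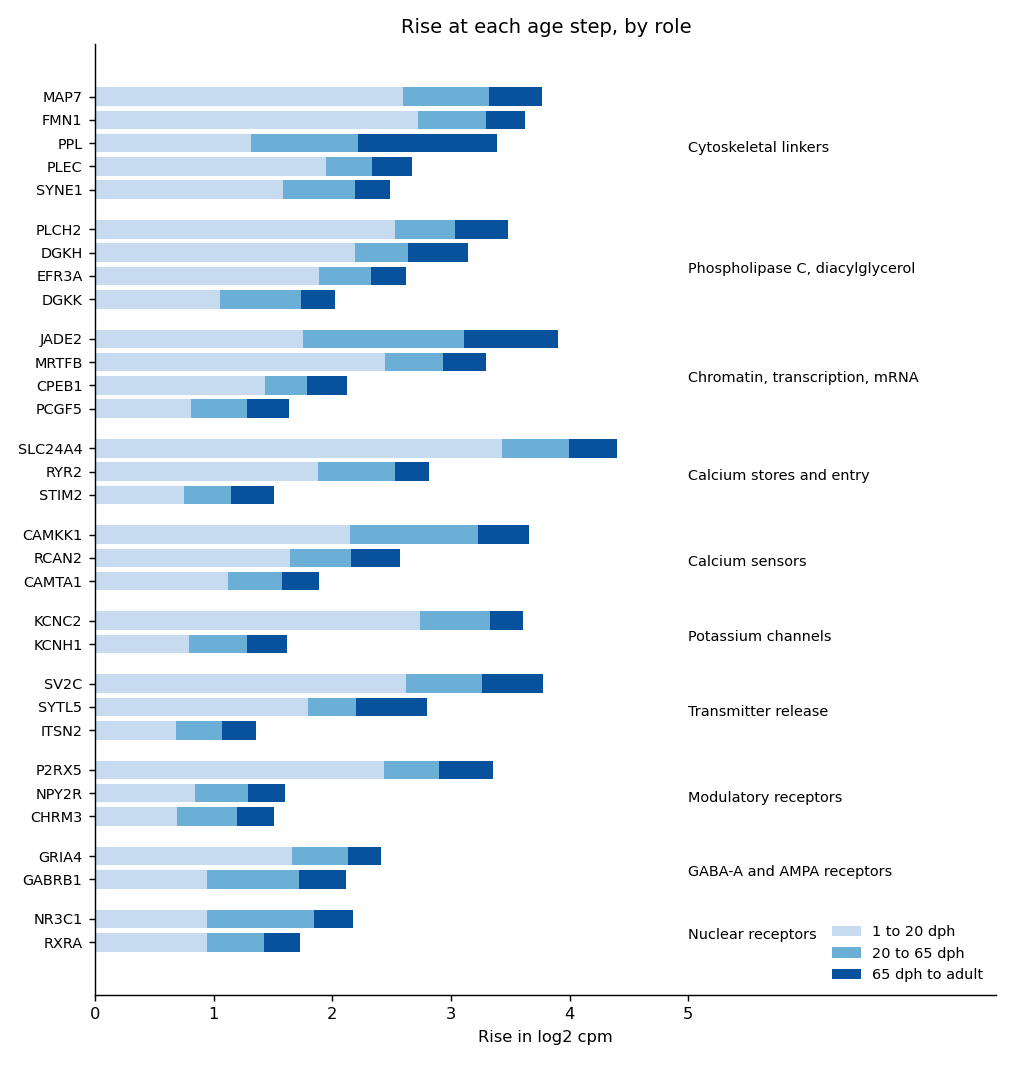
Rise in log2 cpm at each of the 3 age steps (stacked bars, horizontal axis) for 31 genes of the group arranged by role. The early step is the longest segment for most, as for SLC24A4 and KCNC2, while PPL has 1.17 in its last step.

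ENO2 (ENSTGUG00000013292, chromosome 1), the neuron-specific enolase of glycolysis, had 33.8, 44.5 and 76.4 cpm at 1 dph, 371, 393 and 417 cpm at 20 dph, 507, 567 and 602 cpm at 65 dph, and 677, 739 and 781 cpm in adults. It separated all ages, and its rises were 3.07, 0.52 and 0.38 (15.7-fold in total). Of the glycolysis list, 8 of the other 8 tested genes were called higher after 1 dph and 0 lower. OXR1, which protects against oxidative damage, had 54.9 ± 4.73 cpm at 1 dph, 348 ± 25.5 cpm at 20 dph, 535 ± 34.3 cpm at 65 dph, and 659.6 ± 41.0 cpm in adults, and FN3K, a kinase that removes sugars from glycated proteins, had 8.66 ± 0.772 cpm at 1 dph, 30.1 ± 1.06 cpm at 20 dph, 48.0 ± 3.32 cpm at 65 dph, and 60.0 ± 2.79 cpm in adults. Neither overlapped between successive ages. GCHFR, the feedback regulator of GTP cyclohydrolase in the synthesis of tetrahydrobiopterin, had 3.36 ± 0.556 cpm at 1 dph, 11.0 ± 1.37 cpm at 20 dph, 23.2 ± 5.24 cpm at 65 dph, and 32.4 ± 4.02 cpm in adults.

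VCAM1 (ENSTGUG00000005109, chromosome 8), an adhesion molecule of the immunoglobulin superfamily, had 3.59, 4.67 and 6.13 cpm at 1 dph, 13.9, 17.4 and 19.7 cpm at 20 dph, 31.2, 34.6 and 37.0 cpm at 65 dph, and 44.3, 48.4 and 55.5 cpm in adults and did not overlap between ages. The endothelial and pericyte markers, a cell type in which VCAM1 is well known, summed to 122 to 156 cpm at 1 dph, 66.0 to 89.1 cpm at 20 dph, 41.6 to 54.7 cpm at 65 dph, and 47.0 to 53.2 cpm in adults (5 of 12 found), and all 5 were called lower after 1 dph. MFGE8, which bridges phosphatidylserine to integrins, had 20.9 ± 1.75 cpm at 1 dph, 61.5 ± 4.77 cpm at 20 dph, 82.5 ± 2.48 cpm at 65 dph, and 102 ± 4.07 cpm in adults. NKX6-2, a homeobox factor of oligodendrocytes that also stands in the oligodendrocyte marker list, had 2.82 ± 0.626 cpm at 1 dph, 4.33 ± 0.633 cpm at 20 dph, 6.87 ± 0.653 cpm at 65 dph, and 8.79 ± 1.15 cpm in adults. The other genes with high scores were WDR17, CFAP70, ZNF385C, PLXDC2 and ARHGEF37. WDR17, with WD repeats, had 27.1 ± 2.61 cpm at 1 dph, 55.0 ± 5.30 cpm at 20 dph, 87.6 ± 11.2 cpm at 65 dph, and 127 ± 16.8 cpm in adults. CFAP70, of cilia and flagella, had 4.53 ± 0.700 cpm at 1 dph, 6.56 ± 1.49 cpm at 20 dph, 12.1 ± 2.20 cpm at 65 dph, and 19.8 ± 4.18 cpm in adults, and its first step of 0.50 was its smallest. ZNF385C, a zinc finger protein, rose by 0.44, 0.47 and 0.65, and PLXDC2 by 0.92, 0.42 and 0.54. ARHGEF37, a guanine nucleotide exchange factor by its name, rose by 1.51, 0.52 and 0.40, and in its list 18 of the other 20 tested genes were called higher after 1 dph and 2 lower. SGSM1, of the same list, rose by 1.57, 0.28 and 0.29.

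**Figure D4:**
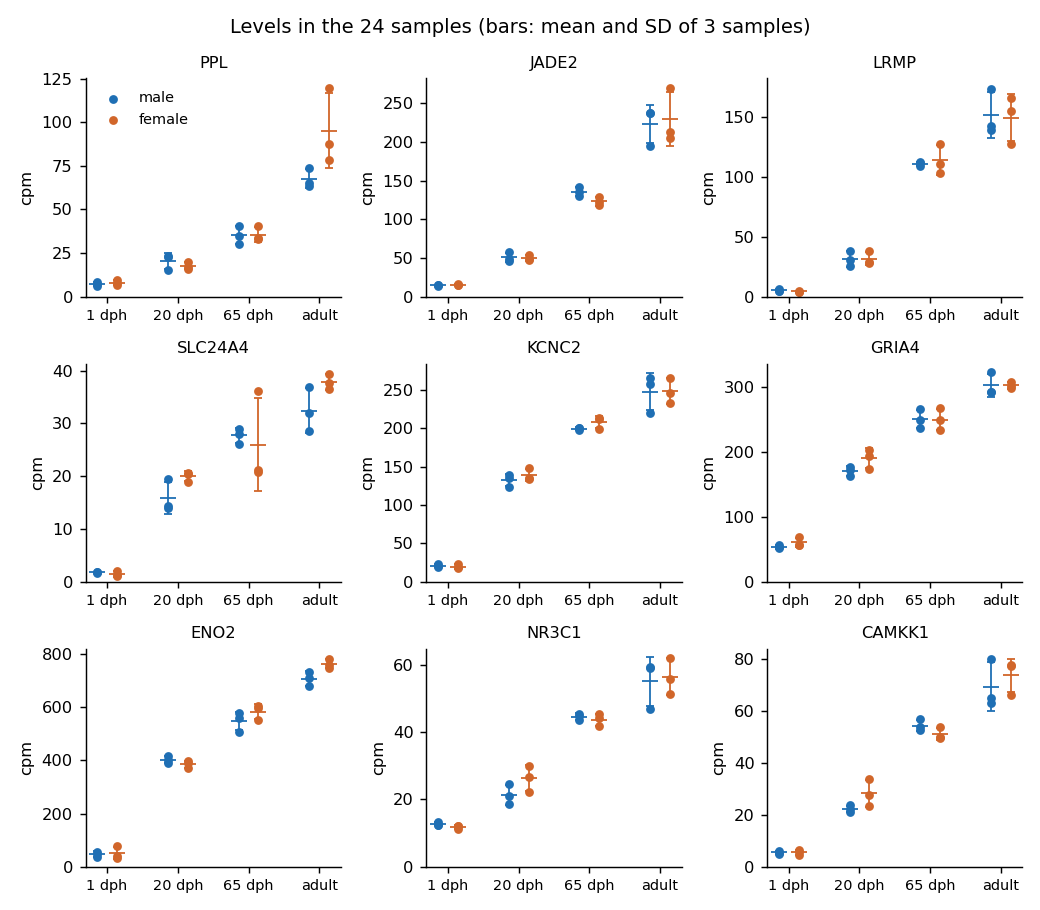
Cpm (vertical axes, from 0) of 9 genes in all 24 samples by age, males in blue left of females in orange, with the mean and SD of 3 samples. PPL ends at 63.6 to 119.5 cpm in adults and LRMP at 128 to 174 cpm.

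Other genes with a symbol were BAG5, GAS7, GSTT2B, AIFM3, FAM217B, LPIN2, ZFYVE28 and HAP1. BAG5, a partner of the Hsp70 chaperone, had 14.8 ± 1.70 cpm at 1 dph, 55.5 ± 6.53 cpm at 20 dph, 79.6 ± 8.33 cpm at 65 dph, and 103 ± 10.5 cpm in adults. LPIN2, a phosphatidate phosphatase, had 29.7 ± 1.94 cpm at 1 dph, 74.0 ± 5.59 cpm at 20 dph, 91.1 ± 8.74 cpm at 65 dph, and 114 ± 9.73 cpm in adults, and HAP1, which binds huntingtin, had 1.47 ± 0.396 cpm at 1 dph, 4.70 ± 0.991 cpm at 20 dph, 5.66 ± 0.655 cpm at 65 dph, and 7.06 ± 0.541 cpm in adults. GAS7, AIFM3, FAM217B and ZFYVE28 separated all 4 ages, whereas GSTT2B, of the glutathione transferases, overlapped at every step. Its rises were 0.44, 0.35 and 0.72.

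The 81 genes without a symbol rose by 0.88 to 3.16 in total. The highest scores among them were 0.85 for ENSTGUG00000003581, 0.80 for ENSTGUG00000007736 and 0.69 for ENSTGUG00000005415, with total rises of 2.59, 2.97 and 2.16. ENSTGUG00000003581 ranked directly after PPL among all 150 genes. ENSTGUG00000007736 had 2.68, 3.07 and 3.32 cpm at 1 dph, 4.398, 5.37 and 6.38 cpm at 20 dph, 8.21, 10.1 and 13.2 cpm at 65 dph, and 15.4, 26.1 and 34.4 cpm in adults. It did not overlap between ages, and its rises grew with each step (0.80, 0.92 and 1.25). These 3 genes were named after their values were seen.

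Within groups these genes were weakly correlated. After the mean of each sex and age was taken off, the median correlation over 11175 pairs of the 150 genes was 0.15 across the 24 samples, against 0.00 over all pairs of the 11741 genes. It was above 0 for 65.9% of the pairs. Each pair shares its libraries, so this is a description. The mean deviation of the 150 genes per sample ran from -0.14 in female sample 2 at 1 dph to 0.12 in female sample 1 at 65 dph on the log2 scale. The median biological coefficient of variation was 0.120 for the 150 genes and 0.0912 for the 11741. Chromosomes were known for 75 of the 150, of which 10 were on Z. Z was also known from the study's list of Z genes, other chromosomes mostly for genes with a symbol. Counts on Z and on other chromosomes are therefore not compared. Genes placed on Z were 6.67% of the 150 and 4.65% of the 11741.

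All 3 mean changes were above 0 for all but 4 of the 150 genes in males and all but 2 in females. The rule asks that the mean over both sexes rise at each step. The choice therefore fixes much of these counts, and no agreement between the sexes is read from them. In males the exceptions were the Z-linked NIM1K, LVRN and ENSTGUG00000018193 and the gene ENSTGUG00000010565, all from 65 dph to adulthood. In females they were PSD3 and ENSTGUG00000002517, from 20 to 65 dph. The median rise at the 3 steps was 0.89, 0.53 and 0.34 in males and 1.06, 0.38 and 0.44 in females. With the choice made from males alone 100 of the 150 genes were kept, and from females alone 102, and these lists had 73 genes in common (48.7% of each).

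Whether a rise differed between the sexes was tested with an interaction in edgeR's quasi-likelihood model over all genes. With Benjamini-Hochberg adjustment, 0 of the 150 genes were called at the first step (0% of all tested genes), 0 at the second (0% of all) and 0 at the third (0.936% of all, or 130 genes, of which 118 are Z genes). An F test over the 3 steps called 0 of the 150 and 1.05% of all genes. At an unadjusted p under 0.05 there were 9, 8 and 11 of the 150, or 6%, 5.33% and 7.33%, against 6.39%, 6.80% and 7.17% of all tested genes. The likelihood ratio test in place of the F test called 1 of the 150, and so did DESeq2. The share of all tested genes was not computed for either, so nothing is read from these counts. The male minus female rise had a median of -0.12, 0.13 and -0.09 over the 150 genes at the 3 steps. At the last step its 5th and 95th percentiles were -0.55 and 0.31. A p above the threshold does not show that the rises were alike. Without the adult samples 0 were called at the first and second steps. Without adult male samples 1 and 3, a fit in which the single adult male left is assumed to vary like the other groups, 0 of the 150 were called at any step, and 7 of 13864 tested genes (0.0505%) were called at the third.

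Levels at each age differed between the sexes for few of the genes. After the omnibus test with Holm adjustment, 7 of the 150 were called at 1 dph (5.59% of all tested genes), 8 at 20 dph (4.45% of all), 9 at 65 dph (4.87% of all) and 2 in adults (2.15% of all). Read against those shares of all genes, the counts of the 150 with all samples are no result about the group. Leaving out male sample 3 of 20 dph moved the count at that age to 14. The adult count moved to 0 (without male sample 2), 1 (without male sample 1 or female sample 1) or 5 (without male sample 3). Shares of all tested genes were not computed for these refits, so nothing is read from their counts. With all samples 13 genes were called at any age (8.67%), against 8.55% of all tested genes. Since the 150 were chosen by age, they could pass the omnibus test through age alone. When each contrast was adjusted by Benjamini-Hochberg over every tested gene, 4 were called at 1 dph (3.71% of all), 3 at 20 dph (2.71%), 8 at 65 dph (3.26%) and, among adults, 0 (0.0432%), while 5 adult contrasts had an unadjusted p under 0.05. By this adjustment 7 of the 8 genes called at any age were Z-linked, and 4.44% of all tested genes were called. Fitted without the adult samples, the Holm step called 10, 9 and 11 genes at the 3 younger ages, and 6.22%, 5.15% and 5.45% of all genes. It called 9, 9, 10 and 2 at the 4 ages without adult male samples 1 and 3, and 5.64%, 4.61%, 4.97% and 3.06% of all genes, the adult ones of the group being ADGRV1 and ENSTGUG00000006817.

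The Z-linked genes, 10 in all, included SV2C, CCDC112, NIM1K, ENSTGUG00000018193, ADGRV1, LVRN, PSD3, TTC39B and LPAR1. Their median male minus female difference was 0.72 at 1 dph, 0.59 at 20 dph, 0.80 at 65 dph and, among adults, 0.15 on the log2 scale. Without adult male samples 1 and 3 the adult median was 0.31, against 0.38 for all tested Z genes. Those samples were set apart by their low Z genes and a single adult male library is left, so the larger difference follows from the choice. With all samples, the medians of all 639 tested Z genes at the 4 ages were 0.75, 0.63, 0.71 and 0.19. The Z genes of the group thus had sex differences close in size to those of Z genes at large, and 9 of the 10 were called at some age with Holm adjustment, the other being PSD3, an exchange factor for Arf6. Of the 639 tested Z genes 86.4% were called at some age, so this count is no result about the group.

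ADGRV1 (ENSTGUG00000000694, chromosome Z) encodes a very large adhesion receptor coupled to G proteins, known from hearing and vision. At 1 dph it had 212, 199 and 204 cpm in males, against 109, 89.7 and 110.1 cpm in females. At 20 dph males had 327, 320.2 and 332 cpm and females 198, 174 and 161 cpm, and at 65 dph males had 458, 394 and 427 cpm and females 296, 231 and 188 cpm. Every male sample was above every female one at these 3 ages. In adults the libraries labelled male had 419, 541 and 373 cpm and those labelled female 319, 363 and 396 cpm, with overlap. The log2 difference was 0.99, 0.88, 0.84 and 0.31 at the 4 ages (standard errors 0.14, 0.14, 0.13 and 0.13). The edgeR Holm adjusted p was 1.02e-06, 4.65e-06, 5.54e-06 and 0.0310, and the adult call was lost without adult female sample 1 or 2, without adult male sample 2 and with Benjamini-Hochberg adjustment (edgeR adjusted p = 0.968). Without adult male samples 1 and 3 together the adult difference was 0.59. Those samples were set apart by their low Z genes and a single adult male library is left. A larger difference of a Z gene follows from that choice, so nothing is read from it.

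CCDC112, which encodes a coiled-coil protein, had 6.35, 5.98 and 5.87 cpm in males at 20 dph, against 2.97, 2.73 and 3.04 cpm in females. The log2 difference was 0.94, 1.05 and 0.83 at 1, 20 and 65 dph, with edgeR Holm adjusted p of 7.55e-06, 1.04e-06 and 1.32e-05. Males and females overlapped at none of the 4 ages, and in adults the difference was 0.22 (edgeR Holm adjusted p = 0.122). ENSTGUG00000018193, TTC39B and LVRN, the last an aminopeptidase known as laeverin, were likewise called higher in males at 1, 20 and 65 dph, and the sexes overlapped in none of these. The differences at the 3 ages were 0.91, 0.91 and 1.00 for ENSTGUG00000018193, 0.81, 0.61 and 0.90 for TTC39B and 0.75, 0.58 and 1.15 for LVRN. LVRN lost its call at 20 dph without female sample 3 or male sample 1 or 2 of that age, and at 1 dph without female sample 3. NIM1K, a kinase related to the AMP-activated kinase, was called at 20 and 65 dph with 0.72 and 0.76. Levels were low in some samples, with lowest values of 0.924 cpm for NIM1K and 0.959 cpm for ENSTGUG00000018193. Not all of these calls held with Benjamini-Hochberg adjustment. With Holm adjustment 6, 6 and 8 of the Z-linked genes were called at 1, 20 and 65 dph, and with Benjamini-Hochberg 4, 3 and 7.

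SV2C was called for sex at 65 dph and not at the other ages, but the differences between ages did not pass their tests. At 65 dph it had 55.1, 44.1 and 56.8 cpm in males, against 38.6, 29.2 and 27.7 cpm in females, without overlap. The log2 difference was 0.71 (standard error 0.17, edgeR Holm adjusted p = 0.00194, Benjamini-Hochberg 0.0176), against 0.14 and 0.12 at 1 and 20 dph and 0.03 in adults. The change of this difference from 65 dph to adulthood was -0.68 (95% interval -1.18 to -0.18), with an edgeR Benjamini-Hochberg adjusted p of 0.332, and from 20 to 65 dph it was 0.59 (0.08 to 1.10, edgeR adjusted p = 0.699). LPAR1, a receptor of lysophosphatidic acid, was called at 1 dph (0.68, edgeR Holm adjusted p = 0.0495) and not with Benjamini-Hochberg adjustment. It lost its call in 21 refits, most of them with 1 sample left out.

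All 10 Z-linked genes had a smaller mean rise in males than in females from 65 dph to adulthood. The median male minus female rise was -0.64 for the 10 and -0.50 for the 639 tested Z genes, of which 93.7% were below 0. LVRN had the lowest adjusted p of the 150 genes at this step (-1.04, 95% interval -1.69 to -0.39, edgeR Benjamini-Hochberg adjusted p = 0.164). Without adult male samples 1 and 3, whose Z genes were close to those of the females, 9 of the 10 had a smaller rise in males, with a median of -0.46 against -0.30 for all tested Z genes. By the median over all 639 tested Z genes, and not the 10 of the group, 2 of the 3 adult libraries labelled male were lower than any younger male. By the same median, all 3 labelled female were higher than any younger female. A mistaken label and a change of Z levels with age were not tested against each other.

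**Figure D5:**
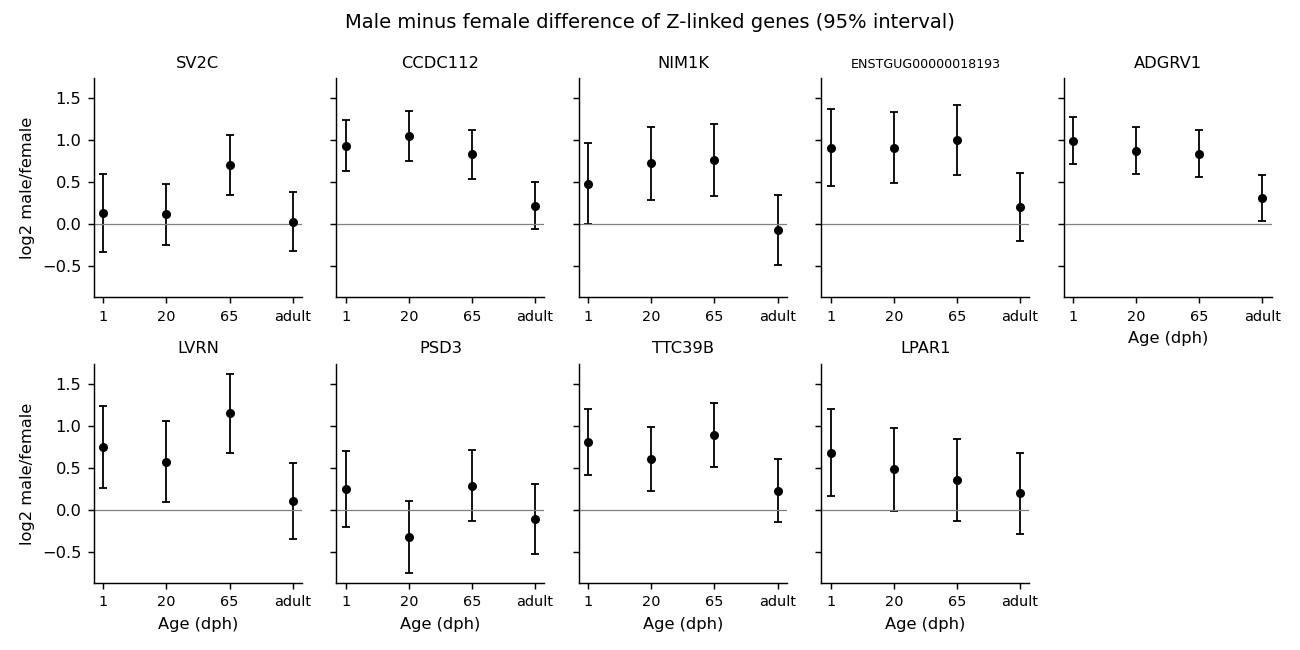
Male minus female log2 difference (vertical axes) at the 4 ages for 9 of the Z-linked genes of the group, with 95% intervals from edgeR. ADGRV1 and CCDC112 are near 1 at 1 dph and at 0.31 and 0.22 in adults.

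Of the genes not known as Z-linked, 4 were called for sex at some age with Holm adjustment, and each was lower in males. Over all tested genes 1187 of 13891 were called at some age, and 552 of these were among the 639 Z genes. The direction of the remaining calls was not counted, so the count and the shared direction are no result about the group. ENSTGUG00000006817 had 14.7, 12.3 and 12.7 cpm in males at 65 dph, against 21.9, 17.95 and 16.99 cpm in females. The log2 difference was -0.46 at 20 dph and -0.52 at 65 dph (edgeR Holm adjusted p = 0.0121 and 0.00516), and the 20 dph call was lost without female sample 1 or 2 of that age. The call at 65 dph held with Benjamini-Hochberg adjustment (edgeR adjusted p = 0.0412). PPL had 65.4, 63.6 and 73.9 cpm in adult libraries labelled male, against 119.5, 78.5 and 87.7 cpm in those labelled female, a difference of -0.49 (edgeR Holm adjusted p = 0.0238). This call was lost without adult female sample 1 or adult male sample 1 or 2, and with Benjamini-Hochberg adjustment (edgeR adjusted p = 0.660). Without adult male samples 1 and 3 together, which leaves a single adult male library, the difference was -0.58, and nothing is read from its size. CAMKK1 was called at 20 dph (-0.34, edgeR Holm adjusted p = 0.0473, Benjamini-Hochberg 0.270), a call lost in 20 refits, most of them with 1 sample left out. ENSTGUG00000010487 was called at 1 dph (-1.03), with 3.55, 4.95 and 4.46 cpm in males and 3.98, 5.12 and 17.3 cpm in females, and the call was lost without female sample 3 or male sample 1 or 3 of that age.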

How the data were processed

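Telencephalon RNA was sequenced by the authors from 24 pools of 3 birds after a stranded polyA library preparation. The deposited table holds raw counts for each Ensembl gene, made by the authors with STAR 2.5.2b and HTSeq 0.6.0 (per the submitters' processing notes, with FastQC 0.10.1 and SAMtools 0.1.18) on the zebra finch assembly taeGut3.2.4. The strand setting of the counting is not given in the sources used here, so reads of overlapping and antisense genes may be mixed. Of 18618 genes, 13891 reached 1 cpm in 3 samples or more and were tested with edgeR 4.0.16 (TMM, quasi-likelihood, 8 groups of sex and age). An omnibus test over 5 contrasts, sex at each age and age, used the Benjamini-Hochberg method at 0.05, followed by Holm's method within the 10354 passing genes. Interactions of sex and age step were adjusted over all genes. DESeq2 1.42.0 was an alternative. The 1 cpm of the rule was taken from library totals. Scripts were tested on simulated data.

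The group, its gene lists and the tests were chosen with earlier results of these data known. Genes were named by a rule: those with a symbol, the 20 highest scores, those of each role list, the 5 largest and smallest totals, Z-linked genes and genes called for sex, and the 3 on either side of the boundary. Symbols and chromosomes came from the study's gene tables. Gene names of the RefSeq table matched no identifier, and promoter and protein sequences were not analysed here. All sample columns were used, and the values of some genes are not reported here.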

Additional observations from a re-analysis of the deposited data

Results flagged for a closer look

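The levels of 72 named genes were examined in the 6 samples of each age, 288 groups in all, for a sample far from the other 5. Such a sample was found in 17 groups (5.90%), where chance flags about 1 in 20. The gap was judged by Dixon's criterion, and no cause was tested. At 1 dph female sample 3 had 11.1 cpm of ZNF385C, against 6.75 to 8.35 cpm in the others. At 1 dph male sample 2 had 2.86 cpm of ENSTGUG00000018193, against 0.959 to 1.67 cpm in the others. At 1 dph female sample 3 had 17.3 cpm of ENSTGUG00000010487, against 3.55 to 5.12 cpm in the others. At 1 dph female sample 2 had 145 cpm of SYNE1, against 175 to 189.7 cpm in the others. At 1 dph female sample 3 had 69.2 cpm of GRIA4, against 51.1 to 56.6 cpm in the others. At 1 dph female sample 1 had 30.8 cpm of PLEKHA1, against 25.3 to 27.1 cpm in the others. At 1 dph female sample 1 had 9.87 cpm of POPDC3, against 8.12 to 8.60 cpm in the others. At 20 dph male sample 3 had 34.9 cpm of SV2C, against 22.1 to 25.2 cpm in the others. At 20 dph male sample 2 had 20.8 cpm of STIM2, against 25.4 to 28.0 cpm in the others. At 20 dph female sample 1 had 152 cpm of RGS7, against 158 to 160.1 cpm in the others. At 20 dph male sample 2 had 30.3 cpm of NPY2R, against 32.6 to 33.5 cpm in the others. At 20 dph male sample 2 had 63.0 cpm of LPIN2, against 73.2 to 77.9 cpm in the others. At 65 dph male sample 1 had 20.9 cpm of SYTL5, against 17 to 17.4 cpm in the others. At 65 dph female sample 1 had 39.9 cpm of STIM2, against 30.7 to 34.1 cpm in the others. At 65 dph female sample 1 had 29.5 cpm of FAM217B, against 33.7 to 35.3 cpm in the others. In adults the library labelled male sample 1 had 30.9 cpm of ARHGEF37, against 40.1 to 42.1 cpm in the others. In adults the library labelled female sample 1 had 10.5 cpm of PCGF5, against 7.40 to 8.55 cpm in the others.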

How the results depend on the processing

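Of the 150 genes, 142 were kept with DESeq2 size factors, 126 with library totals, 150 with a prior count of 0.25, 128 with age medians, 140 without adult male samples 1 and 3 and 145 with 1 cpm taken after TMM, the last 2 settings chosen after seeing the data. Fewer were kept when the filter asked for 1 cpm in only 3 samples (97) or for 5 cpm in all 24 (89), which change the genes that can compete, and 130 to 149 were kept when each sample was left out in turn. The genes whose samples did not overlap numbered 114 to 120, 85 to 94 and 64 to 82 at the 3 steps with each sample left out. The last maximum was that without female sample 1 at 65 dph. Leaving out a sample of the ages compared makes overlap less likely for any gene. Shares of all tested genes were not computed for these refits, so nothing is read from the counts. Genes called for sex were 6 to 9 at 1 dph, 6 to 14 at 20 dph (14 without male sample 3), 8 to 12 at 65 dph and 0 to 5 in adults (0 without male sample 2, 1 without female sample 1 or male sample 1, 5 without male sample 3) with each sample left out. For these refits too, shares of all tested genes were not computed, so nothing is read from the counts. With all samples and Benjamini-Hochberg adjustment per contrast, the genes called for sex were 4, 3, 8 and 0 at 1 dph, 20 dph, 65 dph and adulthood. The shares of all tested genes were 3.71%, 2.71%, 3.26% and 0.0432%. With each age fitted alone they were 2, 4 and 0 at 1 dph, 20 dph and adulthood, and the 65 dph count is not given here. Shares of all tested genes were not computed for those fits, so nothing is read from their counts. The cause of these shifts was not tested. Without adult male samples 1 and 3, the adult male minus female difference of PPL was -0.58 on the log2 scale. A single adult male library is left there, so nothing is read from its size. Rises that differed between the sexes were 0 at the first and second steps with each sample left out, 0 to 1 at the third (1 without female sample 1 at 65 dph or without adult male sample 2) and 0 to 1 in the F test, where the likelihood ratio test and DESeq2 gave 1 each. The share of all tested genes was not computed for these settings, so nothing is read from their counts. Over the named sex differences, 685 refits kept the call and 69 lost it, and no direction was reversed. CAMKK1 at 20 dph lost its call in 20 refits and LPAR1 at 1 dph in 21. The median correlation between genes was 0.17 with library totals and 0.14 by ranks. No paired analysis was possible because the labels give no replicate numbers that the groups share. Low levels limit precision: 84 of the 150 genes were below 10 cpm at 1 dph.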
